A study of Mus musculus with 2 samples.

Results

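The 9 myelin structural genes Mbp, Mog, Mag, Mobp, Cnp, Mal, Cldn11, Opalin and Ermn were taken by name from the 32285 genes counted in single-cell libraries of mouse whole brain. All 9 were found under these symbols. Each had at least 20 UMIs in oligodendrocyte-like cells, so none was lost to the filter on low counts. A UMI is the tag that marks 1 captured mRNA molecule. Both libraries came from 6-month-old APP-KI mice, which carry a knock-in allele that models Alzheimer's disease. The Fit2-Mut library came from mice in which Fit2 is disrupted in macrophages, per the series design text, and the Fit2-WT library from mice with intact Fit2. Fit2 encodes a protein of the endoplasmic reticulum needed for lipid droplet formation. Whole brains were taken apart with an enzymatic kit for adult tissue and sequenced with droplet-based 3′ chemistry. The number of animals behind each library, the App allele, the deleted stretch of Fit2 and the promoter or Cre line used are not given in the sources used here. Each genotype is 1 library, so the spread between animals is unknown, and every difference given below is one between 2 libraries.

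Myelin is the membrane that oligodendrocytes wrap around axons. Its compact layers form where the cytoplasmic faces and the outer faces of the sheath are drawn together, while uncompacted channels, the innermost turn beside the axon and the paranodal loops stay open. Mbp and Mobp are small basic proteins of the cytoplasmic faces, and their mRNAs are carried into the cell's processes. Cnp keeps cytoplasmic channels open, and Ermn binds actin in late-maturing cells. Mal sorts membrane lipids and proteins, Cldn11 forms the tight-junction strands of the sheath, Mag is an adhesion protein facing the axon, Mog lies on the outermost surface, and Opalin is a transmembrane glycoprotein of oligodendrocytes. Transcription of many myelin genes depends on the factors Sox10 and Myrf.

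The members lie apart in the genome (mm10, GENCODE M21). Ermn (chr2:58045113-58052864, minus strand) and Mal (chr2:127633226-127656695, minus) share a chromosome. The others are Cldn11 (chr3:31149920-31164324, plus), Mag (chr7:30899176-30914873, minus), Mobp (chr9:120149707-120181484, plus), Cnp (chr11:100574904-100591729, plus), Mog (chr17:37010743-37023398, minus) and Opalin (chr19:41061710-41077113, minus). A gene on the opposite strand, Galnt5, overlaps the 3′ end of Ermn and had 174 UMIs in oligodendrocyte-like cells. Dnajc7 overlaps Cnp in the same way and had 2566 UMIs there, and Gm38642 overlaps Mobp on its own strand and had 83. The use of strand in the counting is not given in the sources used here, so the split of reads between these pairs is uncertain. Counts of Mbp also take in the longer Golli transcripts of the same gene, which share its 3′ end.

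Windows of 250 bases before to 50 bases after a transcript start were available for 8 of the 9 members (RefSeq, GRCm38.p6), with 3 windows for Mag. They are shown because 4 of those members carry the heptamer described for Myrf, CTGGCAC or CTGGTAC, searched on both strands. Counted by gene, it is present in a window of 2189 of 27025 genes. Counted by window, it is present in 7.096% of 32851 such windows in the genome. The hexamer described for Sox10, ACAAAG or ACAATG, was found in the windows of Mag, Mobp, Cnp, Opalin and Ermn. It is present for 8572 of 27025 genes, and in 28.6% of all windows. Neither was found in those of Mal and Cldn11. A match is a stretch of letters and not a measured binding site. The Mag, Cnp and Mog stretches (chr7:30914898-30914957, minus; chr11:100574832-100574891, plus; chr17:37023448-37023507, minus) have the heptamer 68, 81 and 83 bases before a start. In the Opalin stretch (chr19:41077064-41077093, minus) it begins at base 37 after the start. Capitals mark the heptamer, which in Mog and Opalin reads on the opposite strand as CTGGTAC and CTGGCAC.
Mag: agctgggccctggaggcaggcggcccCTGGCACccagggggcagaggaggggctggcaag
Cnp: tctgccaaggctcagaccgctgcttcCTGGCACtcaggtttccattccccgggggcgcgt
Mog: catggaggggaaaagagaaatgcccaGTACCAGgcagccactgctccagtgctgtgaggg
Opalin: gagacaaagacctgcaGTGCCAGtgagaga
The Mobp stretch (chr9:120149492-120149641, plus) is shown for its 6 copies of ACAAAG, all on the opposite strand and marked as CTTTGT in capitals. It was the only 1 of the 32851 windows with at least 6 copies.
Mobp: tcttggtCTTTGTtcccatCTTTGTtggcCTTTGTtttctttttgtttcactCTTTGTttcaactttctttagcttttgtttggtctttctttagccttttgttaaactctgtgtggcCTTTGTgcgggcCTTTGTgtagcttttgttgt

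The Fit2-Mut library held 63234140 UMIs and the Fit2-WT library 52491901. Of their barcodes 5824 and 5209 were kept as cells, with a median of 7376 and 6817 UMIs. Fitm2, the symbol of mouse Fit2, had 1 UMI in the microglia-like cells of Fit2-Mut and 16 in those of Fit2-WT. In oligodendrocyte-like cells it stood at 8.17 CPM in Fit2-Mut and 8.32 CPM in Fit2-WT (84 and 61 UMIs). CPM, the usual scaled count, is a gene's UMIs over all UMIs of a class. Of the barcodes kept as cells, 9 sequences occurred in both libraries, and none of them was an oligodendrocyte-like cell. The oligodendrocyte-like class held 929 Fit2-Mut cells (15.95%) and 736 Fit2-WT cells (14.1%), and all 10 of its markers, none of them a member, were present in both. Markers of precursors summed to 58.2 CPM there in Fit2-Mut and 43.3 CPM in Fit2-WT, with C1ql1 at 0 in both libraries and Neu4 at 0 in Fit2-WT. Schwann cell markers summed to 2.04 and 3.68 CPM. Markers of the choroid plexus epithelium summed to 2929.8 CPM in the oligodendrocyte-like cells of Fit2-Mut and 838 CPM in those of Fit2-WT, beside 46438 and 47992.5 CPM in the free RNA described below. Their part in the genotype values below was not tested.

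The members were concentrated in oligodendrocyte-like cells, which held 97.2% of all member UMIs in Fit2-Mut cells and 96.5% in Fit2-WT cells. Together the 9 genes made up 2.18% of the UMIs of these cells in Fit2-Mut and 2.16% in Fit2-WT. In the middle cell the share was 2.22% in Fit2-Mut (quartiles 1.92% and 2.55%) and 2.18% in Fit2-WT (1.86% and 2.52%). Their summed level was 21829 CPM in Fit2-Mut and 21608 CPM in Fit2-WT, against 153 and 158 CPM in all other cells of the same libraries. No other named class reached the level of the barcodes with 10 to 100 UMIs, which are taken here as a reading of free RNA. That level stands for free RNA alone, so lying under it does not show that a class makes no members.

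Oligodendrocyte-like cells fell into 2 clusters. Klk6-rich cells (372 in Fit2-Mut, 293 in Fit2-WT) were led by Klk6 and had more Anln, and Opalin-rich cells (557 and 443) were led by Opalin and had more Il33. The cluster genes included Mog, Mal, Cldn11 and Opalin, and Opalin itself defines the classes, so levels by class are given as a description. Klk6-rich cells were deeper, with a median of 13418 UMIs in Fit2-Mut and 12407 in Fit2-WT, against 8391 and 7621 in Opalin-rich cells. Levels below are UMIs of 3′ ends and were not scaled by transcript length, so the order of the genes is an order of UMIs. Over both classes it ran Mal, Mbp, Cnp, Mag, Ermn, Mog, Mobp, Cldn11 and Opalin in Fit2-Mut. Fit2-WT had the same order except that Cnp stood before Mbp, at 3603 CPM (3559 to 3646) and 3576 CPM (3532 to 3619), a pair whose counting intervals overlap.

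Of the basic proteins of the cytoplasmic faces, Mbp (chr18:82475146-82585637, plus strand) had 3759.5 CPM in Klk6-rich cells of Fit2-Mut and 3536 CPM in those of Fit2-WT, and 3705 and 3621 CPM in Opalin-rich cells. Mobp had 1506 and 1437 CPM in Klk6-rich cells of Fit2-Mut and Fit2-WT, and 1255 and 1219 CPM in Opalin-rich cells. Mbp was thus at a similar level in both classes, and Mobp was higher in Klk6-rich cells of each library. Among the proteins of the cytoplasmic channels and the cytoskeleton, Cnp had 3366 CPM in Klk6-rich cells of Fit2-Mut and 3453 CPM in those of Fit2-WT, and 3649.8 and 3773 CPM in Opalin-rich cells. Ermn had 2682 and 2888 CPM in Klk6-rich cells of Fit2-Mut and Fit2-WT, and 2051 and 2039.6 CPM in Opalin-rich cells. Ermn was the member that stood furthest above its Opalin-rich level in Klk6-rich cells.

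Among the membrane proteins, Mal had 2937 CPM in Klk6-rich cells of Fit2-Mut and 2907 CPM in those of Fit2-WT, against 6033 and 5403 CPM in Opalin-rich cells, where it had more UMIs than any other member. Cldn11 had 1168 and 1187 CPM in Klk6-rich cells of Fit2-Mut and Fit2-WT, and 1431 and 1346 CPM in Opalin-rich cells. Opalin had 173 and 179 CPM in Klk6-rich cells, against 1370.1 and 1357 CPM in Opalin-rich cells. These 3 genes were lower in Klk6-rich than in Opalin-rich cells of both libraries. The adhesion and surface proteins went the other way by a small amount. Mag had 3154 and 3206 CPM in Klk6-rich cells of Fit2-Mut and Fit2-WT, and 2723 and 2928 CPM in Opalin-rich cells. Mog had 1481 and 1482 CPM in Klk6-rich cells, and 1399 and 1438 CPM in Opalin-rich cells.

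**Figure D1:**
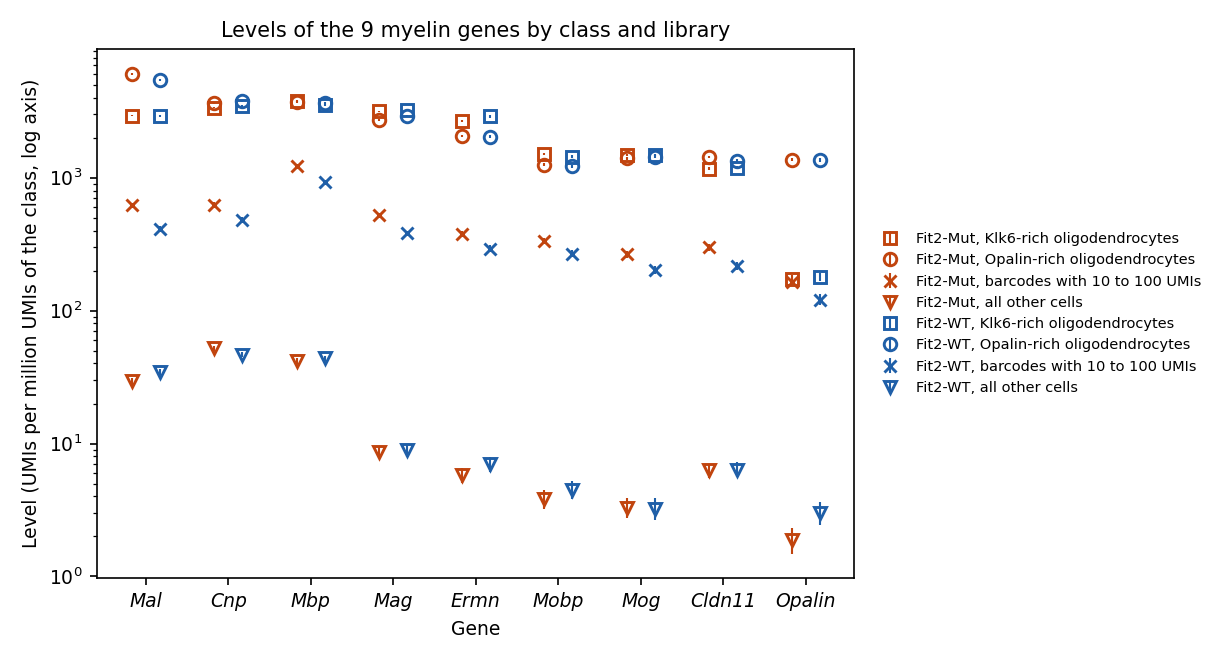
Level of each member (CPM, log axis) in Klk6-rich and Opalin-rich oligodendrocytes, in all other cells and in barcodes with 10 to 100 UMIs, with Fit2-Mut and Fit2-WT as separate points; bars are 95% counting intervals. Mal and Opalin are the members whose points for Klk6-rich and Opalin-rich cells lie furthest apart, at 2937 against 6033 CPM and 173 against 1370.1 CPM in Fit2-Mut.

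Set as ratios, Klk6-rich over Opalin-rich, Opalin stood at 0.126 (95% counting interval 0.118 to 0.135) in Fit2-Mut and 0.132 (0.121 to 0.143) in Fit2-WT, and Mal at 0.487 (0.477 to 0.496) and 0.538 (0.526 to 0.551). Intervals here and below cover counting error only, take every UMI as independent and are too narrow where few cells hold many UMIs. The next were Cldn11 at 0.817 and 0.882 and Cnp at 0.922 and 0.915. Mbp stood at 1.01 in Fit2-Mut and 0.976 in Fit2-WT, Mog at 1.06 and 1.03, Mag at 1.16 and 1.09, Mobp at 1.1998 and 1.18, and Ermn at 1.31 and 1.42. The order of the 9 ratios was the same in both libraries, from Opalin at the low end to Ermn at the high end. Past a ratio of 1.5 in both libraries, 2 of 9 members were lower, Opalin and Mal, and 0 were higher. Over the 10588 genes with at least 20 UMIs in each library, 6.05% were lower and 8.03% higher by this rule. No reading is drawn from the members' count, because the classes were made with these genes. With clusters made without the 9 members, 618 of 665 Klk6-rich and 996 of 1000 Opalin-rich cells kept their class. In those clusters the ratio of Opalin was 0.115 in Fit2-Mut and 0.137 in Fit2-WT, and that of Mal 0.480 and 0.549.

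**Figure D2:**
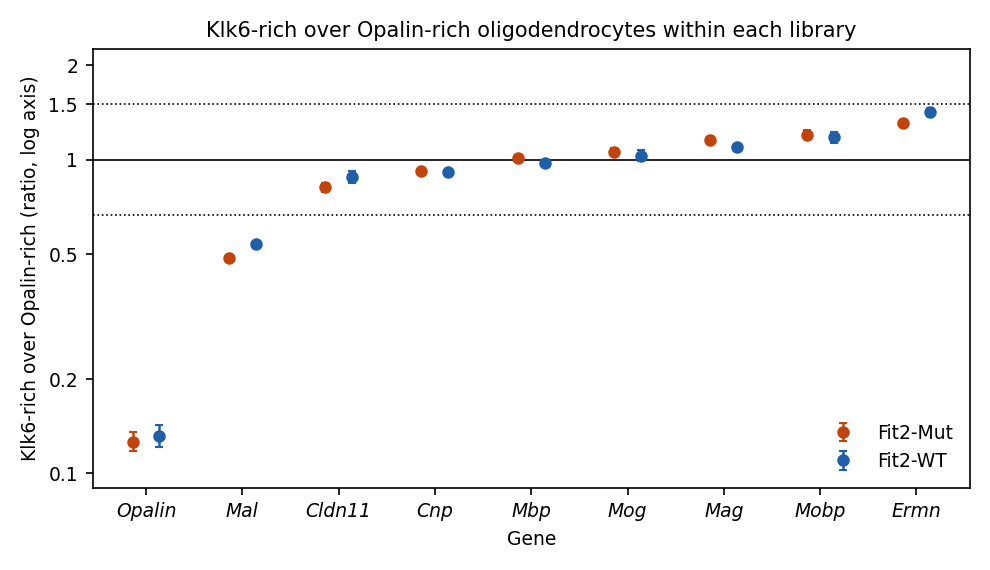
Ratio of each member's CPM in Klk6-rich over Opalin-rich oligodendrocytes (log axis), computed within the Fit2-Mut and the Fit2-WT library; bars are 95% counting intervals and dotted lines mark 1.5-fold. Opalin and Mal lie below the lower line in both libraries, and Ermn is highest at 1.31 and 1.42.

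Other genes of the myelin programme, taken as lists, gave the setting for these ratios. Of 20 other myelin and axoglial proteins, 3 were higher in Klk6-rich cells of both libraries by at least 1.5-fold, and 4 were lower. The higher ones were Anln, which helped to define the class, the gap junction protein gene Gjb1 (2.22 in Fit2-Mut and 2.21 in Fit2-WT) and Hapln2, a link protein of nodes of Ranvier (2.32 and 2.24). The lower ones were the tetraspanins Cd9 (0.207 and 0.173) and Tspan2 (0.400 and 0.455), the axoglial adhesion gene Nfasc (0.608 and 0.623) and the small heat-shock gene Cryab (0.631 and 0.638). Of 14 genes of myelin lipid synthesis, 5 were higher and 0 lower. The median log2 ratio of the list was 0.62 in Fit2-Mut and 0.56 in Fit2-WT, beside 0.043 and 0.052 over all genes counted and 0.021 and -0.035 over the 9 members. Among the 5 were the sterol enzyme genes Hmgcs1 (2.03 and 2.02), Sqle (2.20 and 2.26) and Idi1 (2.11 and 2.03) and the sulfatide enzyme gene Gal3st1 (1.68 and 1.70). Of 9 oligodendrocyte transcription factors, Olig2 (0.449 and 0.493) and Zfp488 (0.308 and 0.120) were lower and none was higher. Of newly formed oligodendrocyte genes, 1 of 6 with enough UMIs was higher, Enpp6 (13.4 and 13.3). Of 11 genes of disease-associated oligodendrocytes, Klk6, which defines the class, was higher and 4 were lower: C4b, Il33, Cd63 and Anxa2. Il33 is itself among the genes by which the classes are described. Anxa2 rested on 41 UMIs in Fit2-Mut and on 28 in Fit2-WT, where its ratio was 0.660 (0.285 to 1.49). Pmp22, best known from peripheral myelin, was higher (2.57 and 2.502).

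Member levels also moved with depth inside a class. Klk6-rich cells with 5000 to 10000 UMIs (69 in Fit2-Mut, 62 in Fit2-WT) had 560 and 610.1 CPM of Opalin, while those with at least 10000 UMIs (282 and 214) had 126 and 113 CPM. Mal stood at 4723 and 4669 CPM in the shallower band of Fit2-Mut and Fit2-WT, and at 2742 and 2667 CPM in the deeper one. The 9 genes together made up 2.41% and 2.41% of UMIs in the shallower Klk6-rich band and 1.99% and 1.98% in the deeper one. In Opalin-rich cells the same bands held 2.43% and 2.37%, and 2.32% and 2.31%. Cells under 5000 UMIs had less in both classes, 1.30% and 0.994% in Klk6-rich cells (21 and 17) and 1.67% and 1.64% in Opalin-rich cells (55 and 65). Opalin-rich cells with 5000 to 10000 UMIs had 1486 CPM of Opalin in Fit2-Mut and 1437 CPM in Fit2-WT, and 6131 and 5436 CPM of Mal. In those with at least 10000 UMIs the levels were 1243 and 1205 CPM of Opalin, and 6110.4 and 5701 CPM of Mal. Both genes were lower in Klk6-rich than in Opalin-rich cells within each of these 2 bands, but the gap in Mal was much smaller at 5000 to 10000 UMIs than in the deeper cells. Under 5000 UMIs, where Klk6-rich cells were few, Mal had 1821 and 934 CPM in them in Fit2-Mut and Fit2-WT, against 3123 and 3362 CPM in Opalin-rich cells. Cldn11 and Cnp, lower in Klk6-rich cells as a whole, were not lower at 5000 to 10000 UMIs. Cldn11 had 1590.4 and 1561 CPM there in Klk6-rich cells of Fit2-Mut and Fit2-WT, against 1425 and 1346 CPM in Opalin-rich cells, and Cnp had 4084 and 4312 CPM against 3876 and 3972 CPM.

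Cell to cell, Opalin gave the clearest split. At least 1 Opalin UMI was found in 39.8% of Klk6-rich cells of Fit2-Mut and 43.7% of those of Fit2-WT, and in 96.1% and 95.03% of Opalin-rich cells. After each cell was thinned to 1000 UMIs the shares were 16.4% and 14.3% in Klk6-rich cells, and 67.9% and 68.4% in Opalin-rich cells. Astrocyte-like cells, which do not make Opalin, gave 0.480% and 0.416% after thinning, at a median depth of 5131 and 4381 UMIs before it. All 9 members were seen together in 39.0% of Klk6-rich cells of Fit2-Mut and 43.0% of those of Fit2-WT, against 92.8% and 89.4% of Opalin-rich cells. At 1000 UMIs these shares were 4.30% and 5.80%, against 18.9% and 21.7%. A cell without Opalin, which defines the classes, cannot hold all 9, so these shares give no reading on the other members. Before thinning, every other member was found in at least 98.1% of Klk6-rich cells of Fit2-Mut (lowest Cldn11) and 96.2% of those of Fit2-WT (lowest Mal).

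The spread between thinned cells was given as variance over mean, which is 1 for counting error alone. Where cells differ, this value rises with a gene's level, so its order over genes is not one of relative spread. Mean UMIs per thinned cell were 5.63 and 4.98 for Mal among Opalin-rich cells of Fit2-Mut and Fit2-WT. For Opalin among Klk6-rich cells they were 0.242 and 0.205. Mal had the highest value, at 1.81 in Fit2-Mut and 1.90 in Fit2-WT among Klk6-rich cells and 2.27 and 2.17 among Opalin-rich cells. Cnp followed among Opalin-rich cells, at 1.75 and 1.81, and Opalin among Klk6-rich cells, at 1.61 and 1.63. Mobp lay closest to counting error among Opalin-rich cells, at 1.09 and 1.06. Among Klk6-rich cells Mobp stood at 0.921 and 1.10, with Mog about as near to 1 in Fit2-Mut (1.08) and Mbp nearer in Fit2-WT (1.06). Mal, with a large difference between the classes, thus also varied beyond counting error within each of them.

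**Figure D3:**
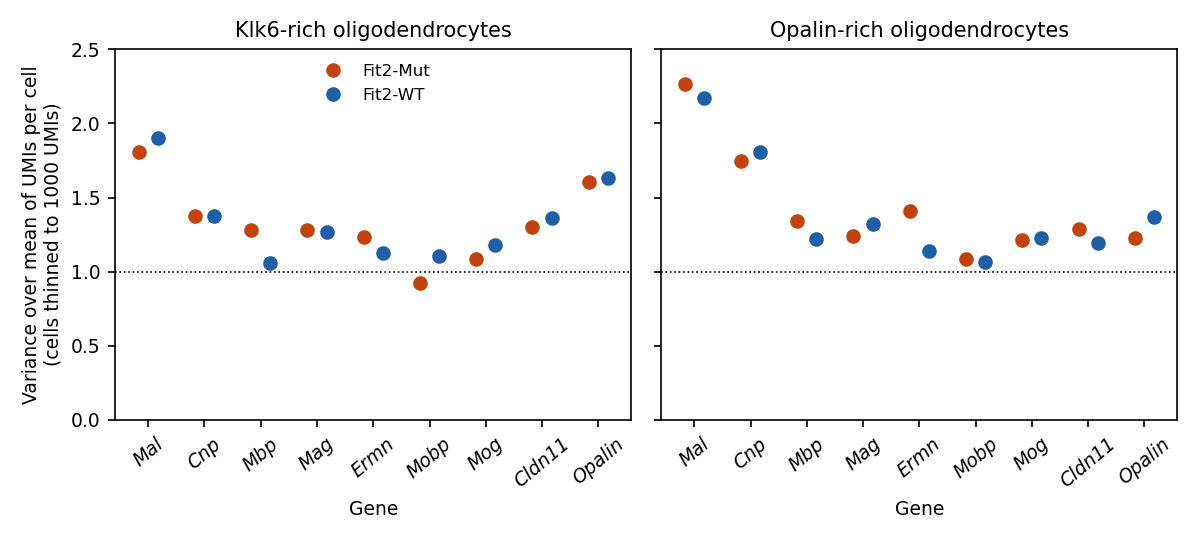
Variance over mean of UMIs per cell for each member (linear axis from 0) after every cell was thinned to 1000 UMIs, in Klk6-rich and Opalin-rich oligodendrocytes of both libraries; the dotted line at 1 marks counting error alone. Mal is highest in every panel and library, at 1.81 to 2.27, and Mobp stays between 0.921 and 1.10.

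The series set Fit2-Mut against Fit2-WT, and no member differed by 1.5-fold between the libraries in oligodendrocyte-like cells. Of 9 members, 0 were higher and 0 lower past that ratio, while 5.18% of the 12194 genes with at least 20 UMIs were higher and 3.08% lower. The members are high in these cells, and among genes with at least 100 UMIs 1.64% were past 1.5-fold either way. The sum of the 9 stood at a ratio of 1.01 (95% counting interval 1.004 to 1.02). The median log2 ratio of the members was 0.017, beside 0.0089 over all genes counted.

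Member by member, Mal stood furthest above 1, with 4400.0 CPM in Fit2-Mut and 4075 CPM in Fit2-WT (1.08, 1.06 to 1.10). Ermn stood furthest below, with 2384 and 2491 CPM (0.957, 0.939 to 0.976). Where every cell had equal weight, the difference in Ermn was smaller or turned, as given in the last section. Mbp had 3734 CPM in Fit2-Mut and 3576 CPM in Fit2-WT (1.04, 1.03 to 1.06), and Mobp 1387 and 1335 CPM (1.04, 1.01 to 1.07). Both mRNAs of the cytoplasmic faces were thus slightly higher in the Fit2-Mut library. Mag was slightly lower there, with 2950.4 CPM against 3076 CPM in Fit2-WT (0.959, 0.943 to 0.976), and so was Cnp, with 3500.0 against 3603 CPM (0.972, 0.956 to 0.987). The intervals of the other 3 held 1: Mog had 1442 and 1461 CPM (0.987, 0.963 to 1.01), Cldn11 1292 and 1261 CPM (1.02, 0.998 to 1.05), and Opalin 739 and 730.2 CPM (1.01, 0.977 to 1.05). With 1 library a genotype, none of these small differences can be set against the spread between animals.

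Inside the classes the picture was alike in size. In Klk6-rich cells 0 of 9 members were past 1.5-fold, beside 4.87% of 11027 genes higher and 3.46% lower, and the sum stood at 0.998 (0.989 to 1.01). Mbp was highest at 1.06 (1.04 to 1.09) and Ermn lowest at 0.929 (0.906 to 0.952). In Opalin-rich cells again 0 of 9 were past 1.5-fold, beside 5.14% of 10786 genes higher and 3.46% lower, and the sum stood at 1.02 (1.01 to 1.03). Mal was highest at 1.12 (1.10 to 1.14) and Mag lowest at 0.930 (0.906 to 0.954). Mal in Klk6-rich cells stood at 1.01 (0.986 to 1.03), and Ermn in Opalin-rich cells at a ratio of 1.01. Whether a member's genotype ratio differs between the classes was not tested.

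**Figure D4:**
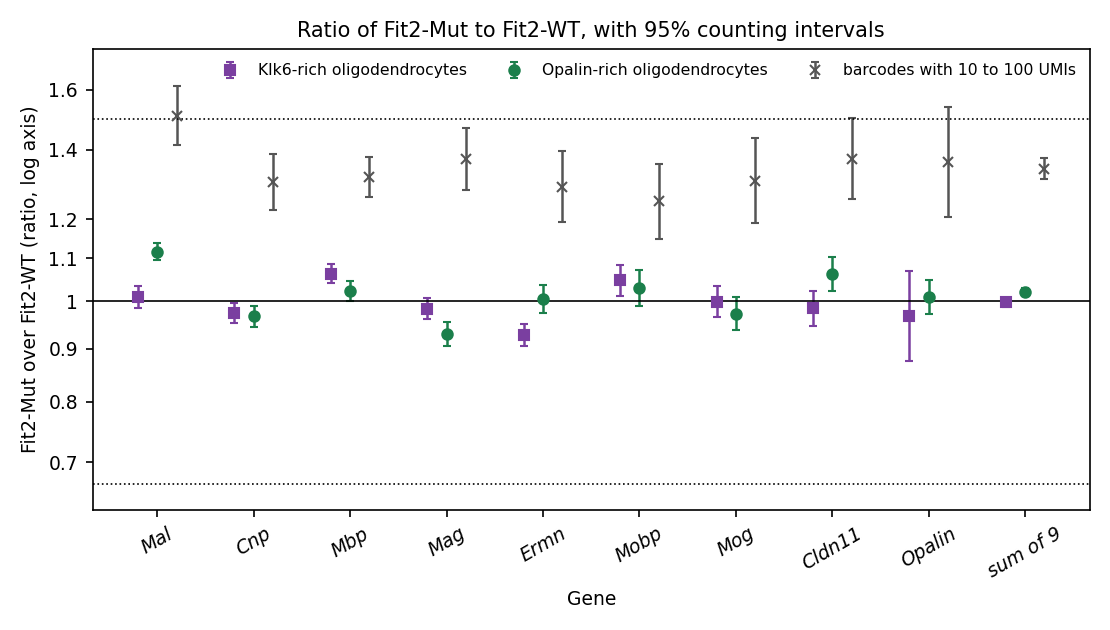
Ratio of Fit2-Mut over Fit2-WT for each member and the sum of 9 (log axis) in Klk6-rich oligodendrocytes, Opalin-rich oligodendrocytes and barcodes with 10 to 100 UMIs; bars are 95% counting intervals and dotted lines mark 1.5-fold. In the cells all ratios lie between 0.929 and 1.12, and in the free RNA all lie between 1.25 and 1.51.

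The wider myelin programme gave a like picture between the genotypes. In oligodendrocyte-like cells 0 of 20 other myelin and axoglial proteins, 0 of 14 lipid synthesis genes and 0 of 9 transcription factors were past 1.5-fold, and the median log2 ratios of the 3 lists were 0.0036, 0.0090 and -0.0046. The transcription factor gene Sox10 stood at 0.948, Myrf at 0.997 and the galactolipid enzyme gene Ugt8a at 1.01. Of 7 newly formed oligodendrocyte genes, 1 was higher, Rras2, from 40 and 17 UMIs (1.68, 0.929 to 3.15), and of 2 peripheral myelin genes with enough UMIs 1 was lower, Ncmap, from 12 and 19 UMIs. Of the disease-associated oligodendrocyte list, 1 of 11 was higher, beside 5.18% of 12194 genes. It was B2m, whose protein pairs with MHC class I chains, with 73.4 CPM in Fit2-Mut and 47.9 CPM in Fit2-WT (1.53, 1.35 to 1.75). In Opalin-rich cells 4 of 11 were higher, beside 5.14% of 10786 genes. B2m had 109 CPM in Fit2-Mut and 53.1 CPM in Fit2-WT (2.06, 1.74 to 2.45), the MHC class I genes H2-D1 168 and 88.6 CPM (1.89, 1.66 to 2.17) and H2-K1 51.7 and 27.7 CPM (1.86, 1.47 to 2.39), and the protease inhibitor gene Serpina3n 25.7 and 12.8 CPM (2.005, 1.41 to 2.90). In Klk6-rich cells none of the list was past 1.5-fold, with B2m at 0.949 and H2-D1 at 0.860; this difference between the classes was not tested. The 5 cells with most UMIs of each of these 4 genes held 21.6% to 45.6% of its UMIs among Opalin-rich cells of Fit2-Mut and 15.8% to 45.5% in Fit2-WT. Higher genes of this list were not particular to Opalin-rich cells. Of those with enough UMIs, 4 of 7 were higher in mural-like and in B cell-like cells. In the barcodes with 10 to 100 UMIs 2 of 11 were higher, and in microglia-like cells 0 of 9.

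Free RNA differed more between the libraries than the cells did. In barcodes with 10 to 100 UMIs the members summed to 4425 CPM in Fit2-Mut and 3296 CPM in Fit2-WT, a ratio of 1.34 (1.31 to 1.37). Each member was higher there in Fit2-Mut, from Mobp at 336 and 269 CPM (1.25, 1.15 to 1.36) to Mal at 619 and 410.0 CPM (1.51, 1.42 to 1.61). Past 1.5-fold 1 of 9 was higher and 0 lower, beside 6.69% of 13761 genes higher and 3.3% lower. The median log2 ratio was 0.40 for the members and 0.07 for all genes counted. Over all cells of a library the members summed to 4395 CPM in Fit2-Mut and 3783 CPM in Fit2-WT (1.16, 1.15 to 1.17), and oligodendrocyte-like cells were 15.95% of Fit2-Mut and 14.1% of Fit2-WT cells. Within oligodendrocyte-like cells the sum stood at a ratio of 1.01, as given above. In the barcodes with 10 to 100 UMIs, the number of oligodendrocytes behind the RNA and the RNA from each of them cannot be told apart. Read from Ttr, the transthyretin gene of the choroid plexus, free RNA made up 1.06% of the UMIs of the middle oligodendrocyte-like cell in Fit2-Mut and 1.04% in Fit2-WT. Over the summed UMIs of these cells, from which member levels are taken, Ttr stood at 6.21% of its free level in Fit2-Mut and 1.71% in Fit2-WT. The part of this difference in the member ratios was not tested.

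Mbp took a larger part of the free member RNA than of the member RNA in cells. It was 27.5% of member UMIs in the free RNA of Fit2-Mut and 28.0% in that of Fit2-WT, against 17.1% and 16.5% in oligodendrocyte-like cells. Set against all cells of the same library, free Mbp stood at 1.59 (1.54 to 1.64) in Fit2-Mut and 1.44 (1.39 to 1.49) in Fit2-WT. Mobp was next at 1.22 (1.15 to 1.29) and 1.17 (1.098 to 1.25), followed by Cldn11 at 1.16 (1.09 to 1.23) and 0.995 (0.926 to 1.07). The intervals of Mobp and Cldn11 overlap in Fit2-Mut. Mal was lowest at 0.700 and 0.572, with Ermn at 0.803 and 0.687 and Cnp at 0.861 and 0.741. The order from Mbp and Mobp at the high end to Mal at the low end was seen in both libraries. Opalin stood at 1.13 and 0.961, Mog at 0.930 and 0.812, and Mag at 0.893 and 0.721.

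Outside oligodendrocytes, 0 of 15 other named classes had a summed member level above that of the free RNA in both libraries. That level is one of barcodes taken as free RNA alone. In the middle oligodendrocyte-like cell free RNA was only 1.06% of UMIs in Fit2-Mut and 1.04% in Fit2-WT. The count of 0 thus cannot tell whether a class makes members. A few genes stood out in single classes. Mal had 509.6 CPM in endothelial-like cells of Fit2-Mut (474 to 547) and 449.7 CPM in those of Fit2-WT (419 to 482), which is 82.3% and 110% of its free level. It was found in 39.6% and 33.7% of these cells after thinning to 1000 UMIs, against 0.538% and 0.733% of microglia-like cells. Median depths were 3906 and 3870 UMIs in endothelial-like cells and 11019 and 9690 UMIs in microglia-like cells, so the class with more Mal was the shallower one. Other members stayed low in the same endothelial-like cells, where Mal made up 88.3% and 87.6% of all member UMIs. Without the 5 cells of each library with most member UMIs, Mal stood at 496 and 426 CPM.

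Cldn11 had 183 CPM in fibroblast-like cells of Fit2-Mut (155 to 215) and 256 CPM in those of Fit2-WT (213 to 304), which is 61.4% and 118% of its free level. It was found in 22.2% and 22.03% of these cells after thinning (81 and 59 cells), and in 0.307% and 0.484% of endothelial-like cells. Without the 5 cells with most member UMIs it stood at 171 and 192 CPM. Cnp had 215 CPM in ependymal-like cells of Fit2-Mut and 209 CPM in those of Fit2-WT, and was found in 76.5% and 71.3% of them, against 33.5% and 28.2% of microglia-like cells of like depth. Mbp had 300.4 and 259 CPM in neutrophil-like cells of Fit2-Mut and Fit2-WT, and 404 and 289 CPM in monocyte-like cells. Both lay under the free level of Mbp, at 24.7% and 28.1% of it in neutrophil-like cells and 33.2% and 31.3% in monocyte-like cells. Mbp made up 81.9% and 77.3% of member UMIs in neutrophil-like cells, and 31.7% and 88.1% in monocyte-like cells. In the free RNA it was 27.5% and 28.0%. The source of this Mbp was not tested. For Opalin, Mobp, Mog, Mag and Ermn, every named class outside the oligodendrocytes was at 6.01% of the free level or less in at least 1 library. In the other library some were higher, up to 35.5% for Mog in monocyte-like cells of Fit2-Mut. Opalin stood at 33.6% in neuroblast-like cells of Fit2-WT. In both of these classes few cells held most member UMIs, as given below.

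**Figure D5:**
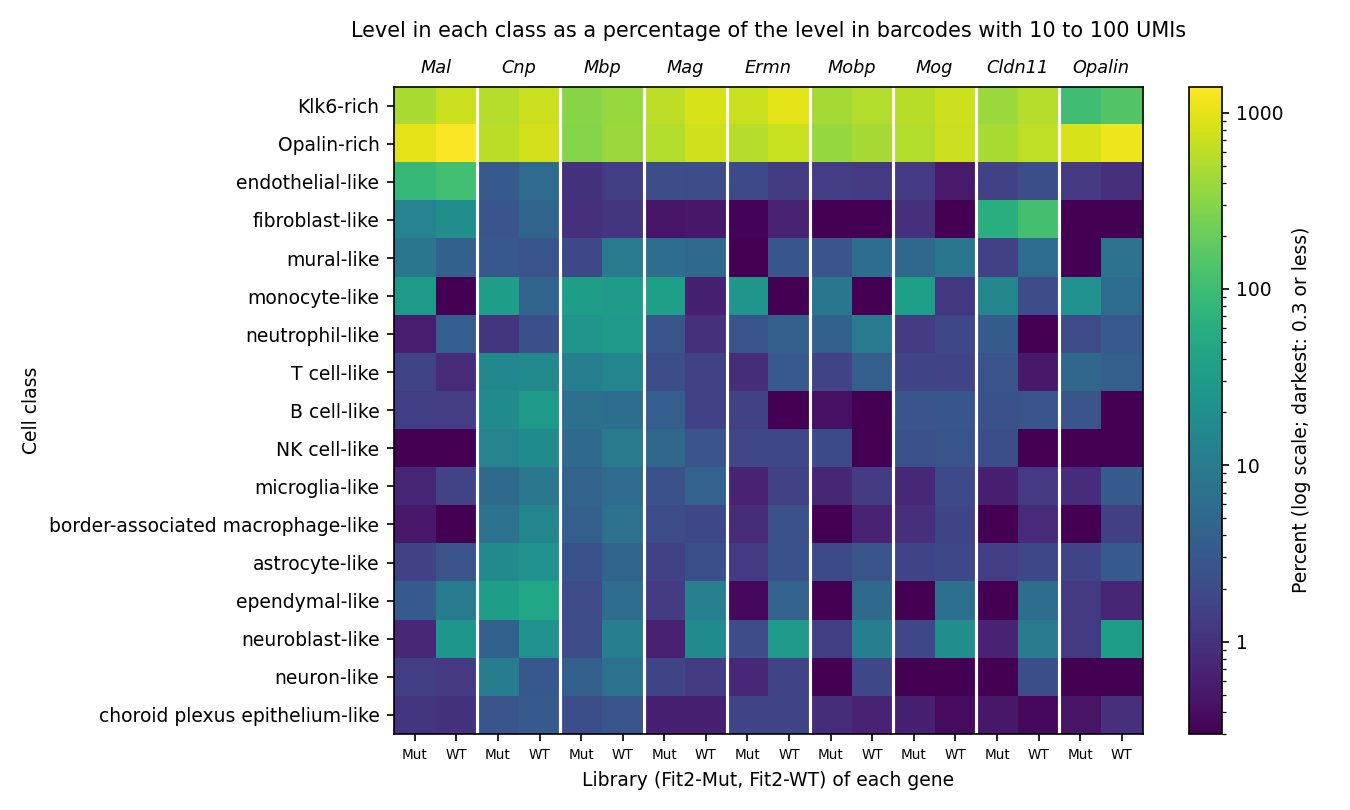
Level of each member in each cell class as a percentage of its level in barcodes with 10 to 100 UMIs of the same library (colour, log scale), with Fit2-Mut left of Fit2-WT for each gene. Outside the 2 oligodendrocyte classes the cells nearest to the free level in both libraries are Mal in endothelial-like cells (82.3% and 110%) and Cldn11 in fibroblast-like cells (61.4% and 118%).

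In several classes the member sum rested on few cells. The 5 cells with most member UMIs held 80.6% of them in monocyte-like cells of Fit2-Mut, 91.5% in neuroblast-like cells of Fit2-WT and 50.3% in ependymal-like cells of Fit2-WT. In each of these 3, 1 cell reached the member share at the 5th percentile of oligodendrocyte-like cells (1.14% of UMIs in Fit2-Mut, 0.938% in Fit2-WT). Microglia-like cells, the resident macrophages of the brain, had 118 CPM of the members in Fit2-Mut and 135 CPM in Fit2-WT (0.870, 0.787 to 0.962). Of the members 0 were higher and 4 lower past 1.5-fold there, beside 6.1% of 11775 genes higher and 3.77% lower: Opalin, Mog, Ermn and Mal, each with 10 to 39 UMIs a library. Without the 5 cells of each library with most member UMIs, the sums were 112 CPM in Fit2-Mut and 101 CPM in Fit2-WT (1.11, 0.991 to 1.24), so the direction of the sum rested on those cells.

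Oligodendrocyte precursors formed no cluster. Only 6 cells of Fit2-Mut and 2 of Fit2-WT had at least 4 of the 8 precursor markers, too few to give levels for a class. Of these, 5 lay in the neuron-like cluster and held 0 to 4 member UMIs each, while 1 in the Klk6-rich cluster held 476. A cluster led by Npy and Frzb, left unnamed, had 431 CPM of the members in its 45 Fit2-Mut cells and 315 CPM in its 28 Fit2-WT cells, which is 0.0431% and 0.0315% of UMIs.

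Among the genes whose level over the 17 classes of both libraries (34 points) was most like the members' mean profile, by Pearson correlation, were Gm33594 and Gm36855 (0.969 each), Tmem125 (0.965), Cyp2j12 (0.962), 9330199G10Rik (0.960), Galnt5 (0.959) and Gm12324 (0.957). The points share libraries and free RNA, so these values are a description, and Galnt5 is the gene that overlaps Ermn. Among the members themselves the values ran from Mog (0.969) and Mag (0.968) down to Cldn11 (0.846) and Mal (0.821), the 2 members with a high level in fibroblast-like and in endothelial-like cells. Each member is part of the mean profile it is set against, so the members' values cannot be compared with those of the other genes.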

How the data were processed

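The data are 1 droplet-based 3′ single-cell library per genotype. The deposited values are raw UMI counts of each gene in every barcode, cells or not, per the file headers. The submitters' processing notes name mm10 and Cell Ranger 7.0.0, and the file headers name version 7.1.0. Annotation release and intron handling are not given in the sources used here. Barcodes with at least 1000 UMIs, 500 genes and at most 10% mitochondrial UMIs were kept. Scrublet in Scanpy 1.11.5 removed 155 Fit2-Mut and 124 Fit2-WT doublets (expected 0.8% per 1000 barcodes), leaving 5824 and 5209 cells. Log-normalised counts of both libraries were clustered without integration, on 2000 variable genes reduced to 30 principal components, with 15 neighbours a cell. Leiden clustering (resolution 1, leidenalg 0.10.2 with python-igraph 0.11.9) returned 29 clusters. Clusters were named "like" from markers that include no member (at least 3 and at least 0.5 of a list, each 2-fold above other cells and in 10% of the cluster). UMIs were summed per class and given as CPM. Of the members and of each list, genes with at least 20 UMIs were counted as past 1.5-fold. With 1 library per genotype there is no test and no p-value. Intervals are 95% exact intervals: Poisson for levels, conditional for ratios, Clopper-Pearson for shares. All 9 members are named; of the lists, the 4 highest genes and those past 1.5-fold with at least 50 UMIs could be named, and of like genes the 8 highest. Some items are not reported here. The members and lists were chosen with earlier results of these data known. The steps were tested on simulated data. TMM came from edgeR 4.0.16 in R 4.3.3. SciPy 1.17.1, NumPy 2.4.6 and Matplotlib 3.10.9 were used under Python 3.11.15.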

Additional observations from a re-analysis of the deposited data

How the results depend on the processing

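No paired analysis was possible because each genotype is 1 library, and for the same reason no replicate could be left out. Under all 12 alternatives the median log2 ratio of the members, Fit2-Mut over Fit2-WT, stayed within the counting interval of the member at the median. The median lay between -0.0017 and 0.049 in oligodendrocyte-like cells, -0.0067 and 0.042 in Opalin-rich cells and -0.033 and 0.013 in Klk6-rich cells. In oligodendrocyte-like cells that member was Opalin (-0.034 to 0.067), which had the fewest UMIs of the members and the widest interval. The interval is thus that of a single gene and not one of the median. The alternatives changed the limits on cells, doublets, depth, weights of cells, free RNA, clustering and scaling. Of these, 1 was added after seeing the data, principal components from values not scaled per gene. Of 108 values for single members, 100 moved by less than their interval and 7 by more. Ermn in oligodendrocyte-like cells turned to 0.017 with every cell thinned to 1000 UMIs, against -0.063. With the mean over cells of each cell's CPM, Ermn stood at -0.0091, also outside its interval. The cause was not tested. The median of Klk6-rich over Opalin-rich cells, -0.0068, was -0.040 at 500 UMIs and 250 genes, 0.058 in thinned cells and -0.053 with TMM. The free RNA log2 ratio of 0.42 was 0.41 and 0.42 in other UMI ranges. Under all 8 alternatives, 0 other named classes had a member sum above the level of free RNA alone. Genes past 1.5-fold, 1008 of 12194, were 2921 with at least 1 UMI in each library and 155 with at least 100 UMIs, which test more and fewer genes. Depth limits values from few UMIs, such as the members in microglia-like cells.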
